A study of Homo sapiens with 3 samples.

Results

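NEAT1 and MALAT1 are long noncoding RNAs of the nucleus. Their 3′ ends, as caught with oligo(dT), were compared here between newly made and steady-state RNA. The cells were HEK293T, a widely used line derived from human embryonic kidney. The ends were counted on the plus strand of chromosome 11 inside windows given in hg19 numbering, chr11:65190200-65213100 for NEAT1 and chr11:65265200-65274000 for MALAT1. Positions within 24 nt of a local maximum were merged. This gave 141 ends, 96 in NEAT1 and 45 in MALAT1, of 779809 merged nuclear ends in all. Most were sparse: 132 of the 141 had fewer than 20 counts over all libraries together, and 88 had 1 count.

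NEAT1 builds paraspeckles, nuclear bodies that hold RNA-binding proteins. Its short form ends at an ordinary upstream poly(A) site. Its long form, the one that scaffolds the paraspeckle, runs past that site and ends where RNase P cuts before a tRNA-like structure. MALAT1, its neighbour on the chromosome, gathers in nuclear speckles and ends in the same way, with a triple helix in place of an added poly(A) tail. The assay starts from oligo(dT), so the values below are levels of ends that oligo(dT) caught, not levels of all NEAT1 or MALAT1 RNA.

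By 2P-seq, the last bases of an RNA before its poly(A) tail are read. There were 3 libraries, each alone in its group. For the captured libraries, cells took up 4-thiouridine (4sU) for 30 or 60 min, at 1000 mM as the labels have it. The third group, called input, stands for steady-state RNA; its title ties it to the 30 min labelling, while its treatment is labelled none. Captured RNA carries 4sU and is enriched for molecules made during the labelling; per the labels' protocols it skipped the first of the poly(A) selections. Nuclear counts, the basis of CPM (counts scaled to a library total of 1000000), numbered 9652023 at 30 min, 6151986 at 60 min and 32768468 for input, and values are listed in that order throughout. With n = 1 per group there is no replicate check and no p-value, and 95% intervals, given in parentheses, cover counting error only. A ratio is called higher or lower when it is at least 2-fold and its interval leaves out 1.

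The windows were first examined for place and strand. The NEAT1 window held 3159, 3773 and 3085 counts on the plus strand and 0 on the minus strand in each library. A count of 0 allows up to 0.3822, 0.5996 and 0.1126 CPM, the upper ends of its exact Poisson intervals. In this window the strand in the tables is that of the RNA. The highest NEAT1 end lay at chr11:65193996, 4 nt from the position named for the short isoform. The last NEAT1 end, chr11:65213007, and the last MALAT1 end, chr11:65273937, lay 93 and 63 nt before the ends of their windows, where the rule looks only in the final 500 nt. These last ends, whose places the rule thus largely fixes, were 60930 nt apart, against 60976 nt between the ends of the genes in the RefSeq table of GRCh38.p14, in which both are annotated as lncRNA. The sources used here do not name the build of the tables, and no sequence or exon annotation of hg19 was used, so no end was tested for a poly(A) signal or for a run of A in the genome.

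The short end of NEAT1 dominated its gene and was higher in captured than in input RNA. Its counts were 3061 at 30 min, 3631 at 60 min and 2915 in the much deeper input. These correspond to 317 CPM (306 to 329), 590.2 CPM (571 to 610) and 88.96 CPM (85.8 to 92.2). The input was lowest and the 60 min library highest, and no pair of these intervals overlapped. Ranked by counts among all nuclear ends, it was 356th at 30 min, 154th at 60 min and 1649th in input.

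Against input the short end was 3.57-fold higher at 30 min (3.39 to 3.75) and 6.63-fold higher at 60 min (6.32 to 6.97), called higher at each time. Of the 10843 nuclear sites with a mean of at least 10 CPM, 35.3% were called higher at 30 min and 27.3% at 60 min. The short end was the only one of the 141 ends to pass this filter. Its ratio lay above those of 79.6% of the sites at 30 min and 92.7% at 60 min. The median site stood at 1.29- and 1.04-fold, so the short end was 2.76 and 6.35 times the median. Its call held under the other scalings, at 2.63- to 2.78-fold for 30 min and 4.94- to 6.33-fold for 60 min.

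Between labelling times the short end was 1.86-fold higher at 60 than at 30 min (1.77 to 1.95), just under the 2-fold threshold. The background was 4.58% of sites called higher and 14.0% called lower, and the short end exceeded 94.3% of the sites. Relative to the median site, at 0.831-fold, it was 2.24-fold higher. With median-of-ratios and TMM scaling, which move all sites by 0.30 and 0.26 on the log2 scale in this comparison, the ratio was 2.29 and 2.22 and was called higher. Both ratios against input share the input library.

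**Figure D1:**
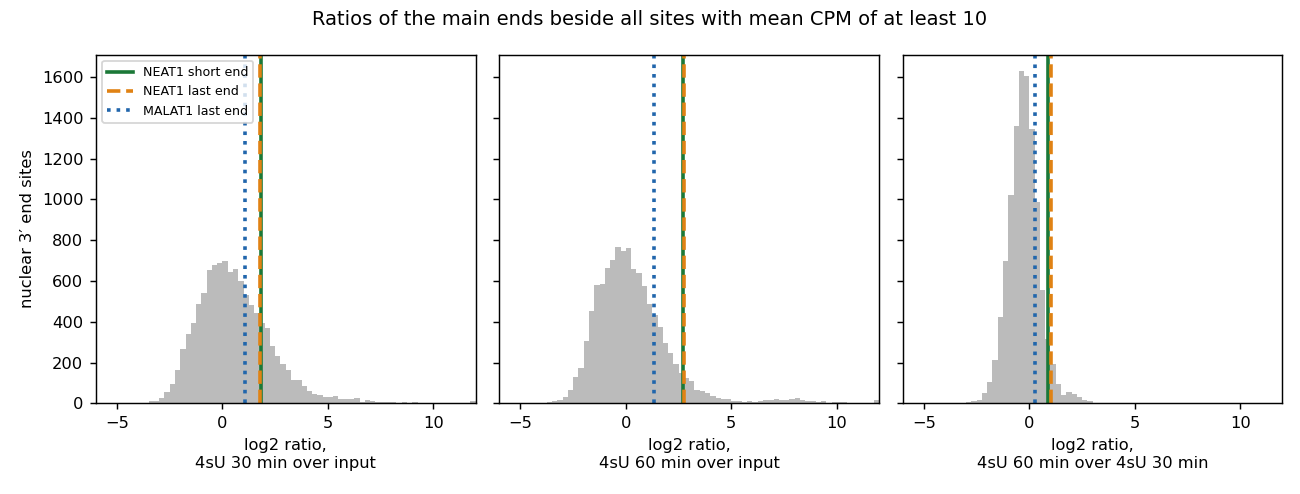
Histograms of the log2 ratio over 10843 nuclear 3′ end sites with a mean of at least 10 CPM, 1 panel per pair of libraries; vertical lines mark the NEAT1 short end, NEAT1 last end and MALAT1 last end, and sites beyond the axis are in the outermost bars. The NEAT1 ends lie right of most sites in each panel, with ratios of 3.57 and 3.39 at 30 min over input, and the MALAT1 last end lies nearer the centre at 2.09.

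Few counts lay where the long form ends. The last end of NEAT1 at chr11:65213007 had 7, 9 and 7 counts, or 0.725 CPM (0.292 to 1.49), 1.46 CPM (0.669 to 2.78) and 0.214 CPM (0.0859 to 0.440). Of these 23 counts, 91.3% lay at 1 position, and no plus-strand count lay in the 500 nt after the window. Its ratio to input was 3.39-fold at 30 min (1.02 to 11.3) and 6.85-fold at 60 min (2.27 to 21.6), called higher at each time. So were 35.3% and 27.3% of the sites with a mean of at least 10 CPM, a filter this end does not pass. With no such filter, 6.63% and 7.89% of all merged nuclear ends were called higher. Under the other scalings the 30 min ratio of the last end was 2.50 to 2.65, with intervals that include 1. Its ratio between labelling times was 2.02 (0.669 to 6.37), which was not called.

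The balance between the last and the short end could not be told apart between libraries. Of the counts at either end, the last end held 0.228% at 30 min (0.111 to 0.470), 0.247% at 60 min (0.130 to 0.469) and 0.240% in input (0.116 to 0.494). The difference between 30 min and input was -0.0114 points (-0.291 to 0.260), and that between 60 min and input was 0.00769 points (-0.272 to 0.262). The fold of the short end divided by that of the last end, a value that no library scaling moves, was 1.05 at 30 min (0.314 to 3.51) and 0.969 at 60 min (0.306 to 2.93). With 7 to 9 counts at the last end, depth limits this comparison. The shares are also of ends that oligo(dT) caught, so they do not measure how much of NEAT1 is the long form.

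**Figure D2:**
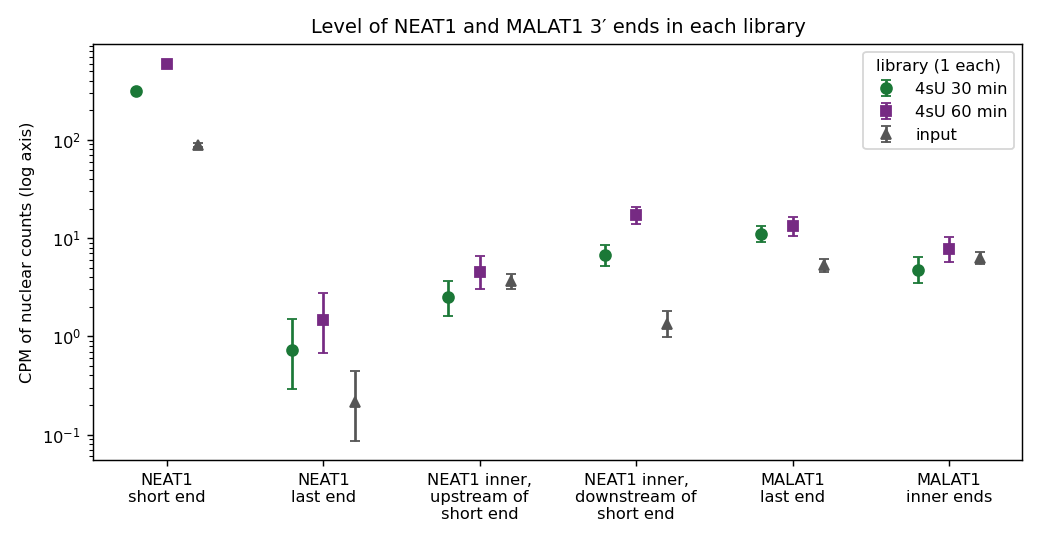
Level of each group of ends in CPM of nuclear counts on a log axis, with exact Poisson 95% intervals; circles are 4sU 30 min, squares 4sU 60 min and triangles input, 1 library each. The NEAT1 short end (88.96 CPM in input) stands far above every other group, and NEAT1 inner ends split into an upstream group with overlapping intervals and a downstream group that is lowest in input.

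Inner ends of NEAT1, those before the final 500 nt of the window and not at the short end, summed to 89, 133 and 163 counts, or 9.22, 21.6 and 4.97 CPM. They were then split at the short end, a choice made after the values were seen. Upstream of the short end, in sequence that both forms share, inner ends had 24, 28 and 119 counts, or 2.49 CPM (1.59 to 3.70), 4.55 CPM (3.02 to 6.58) and 3.63 CPM (3.01 to 4.35). All 3 intervals overlapped, and the ratios to input of 0.685 (0.422 to 1.07) and 1.25 (0.799 to 1.91) were not called. Since the short end itself was so much higher in captured RNA, their share of NEAT1 counts was 3.86% in input (3.23 to 4.60) but 0.760% at 30 min (0.511 to 1.13) and 0.742% at 60 min (0.514 to 1.07).

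The fold of the short end divided by that of the upstream inner ends was 5.21 at 30 min (3.33 to 8.47) and 5.29 at 60 min (3.47 to 8.32). Between labelling times it was 1.02 (0.563 to 1.82). This pattern depends on where the short end is bounded. With merging within 10 nt, positions 20 and 24 nt upstream of its peak count as inner ends, and the upstream inner ends were then 2.02-fold (1.59 to 2.56) and 4.22-fold (3.39 to 5.25) above input.

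The upstream inner ends sat mostly in the last kilobase before the short end. The highest, chr11:65193407, lies 589 nt upstream of the short end and had 7, 1 and 45 counts, or 0.725, 0.163 and 1.37 CPM. It was highest in input, and its ratio was 0.528 at 30 min (0.201 to 1.18) and 0.118 at 60 min (0.00293 to 0.694), called lower at 60 min. At 60 min 21.8% of the background sites were called lower, but these have a mean of at least 10 CPM and this end does not. With no such filter, 1.08% of all merged nuclear ends were called lower. Only 402452 of those 779809 ends had any input count, and an end without one cannot be called lower. Sparse ends thus hold this share down, and neither share is a matched background. An end 110 nt upstream, chr11:65193886, had 3, 2 and 21 counts, with intervals of its ratios that include 1. The end at chr11:65193971, at the border of the short end, went the other way, with 1, 9 and 4 counts, or 0.104, 1.46 and 0.122 CPM. Neither of these is in the rule for named ends, and both were chosen after their values were seen.

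Downstream of the short end, in sequence that only the long form holds, inner ends were higher in captured RNA. They had 65, 105 and 44 counts, or 6.73 CPM at 30 min (5.20 to 8.58), 17.1 CPM at 60 min (13.96 to 20.7) and 1.34 CPM in input (0.976 to 1.80). No pair of these intervals overlapped. The ratio to input was 5.01 at 30 min (3.37 to 7.53) and 12.7 at 60 min (8.86 to 18.5), and between labelling times it was 2.53 (1.84 to 3.51), all called higher. With distinct positions counted in place of reads, the ratios to input were 2.02 (1.18 to 3.39) and 4.69 (2.93 to 7.48). Of the inner ends, the downstream part held 73.0% of counts at 30 min (63.0 to 81.2), 78.9% at 60 min (71.3 to 85.0) and 27.0% in input (20.8 to 34.3). The difference from input of 46.0 and 52.0 points became 18.6 and 21.7 points with merging within 10 nt, 86.99 and 82.1 points without positions of 1 count, and 71.6 and 89.4 points without inner ends under 20 counts.

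Much of this came from a stretch of 2 kb, from 16 to 18 kb after the start of the NEAT1 window. It is the pair of fullest 1 kb bins, picked after the counts were seen and filled mostly by the captured libraries, so its ratios are a description. The stretch held 52, 77 and 7 counts, or 5.39, 12.5 and 0.214 CPM, which is 25.2-fold (11.4 to 65.8) and 58.6-fold (27.1 to 150.6) above input. Without it, 13, 28 and 37 counts remained downstream of the short end. The ratio to input was then 1.19 at 30 min (0.582 to 2.30), no longer called, and 4.03 at 60 min (2.38 to 6.77). Set against the short end, those remaining inner ends had a fold of folds of 0.335 at 30 min (0.163 to 0.646) and 0.608 at 60 min (0.357 to 1.02), whereas with the stretch it was 1.41 (0.941 to 2.12) and 1.92 (1.33 to 2.80).

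Ends inside this stretch were chosen after their values were seen, as none reached 1% of the window's counts. The end at chr11:65207206 had 15, 34 and 3 counts, all at 1 position, or 1.55, 5.53 and 0.0916 CPM. It was 17.0-fold (4.80 to 91.5) and 60.4-fold (18.98 to 307) above input, and 3.56-fold higher at 60 than at 30 min (1.89 to 7.03). The end at chr11:65207124, just upstream of it, had 19, 24 and 1 counts over 4 positions, with ratios to input of 64.5 (10.3 to 2680) and 128 (20.9 to 5257). Further upstream, chr11:65207002 had 7, 9 and 0 counts, and chr11:65206862 had 8, 1 and 3. All of these but the last were highest at 60 min in CPM, and the last was highest at 30 min.

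Input counts downstream of the short end were scattered. Drawn down to 51 counts in each library, the plus-strand counts of this part covered an expected 43 positions in input, but 22.1 at 30 min and 22.6 at 60 min. Their density was 0.402, 0.971 and 0.0816 CPM per kb. The plus strand between the genes, 52099 nt long, had 0.0398, 0.0811 and 0.0545 CPM per kb. That background is itself uneven, as 63 of its 93 input counts lay at chr11:65224074, and of the 74 and 114 captured counts behind the density downstream of the short end, 52 and 77 lay in the stretch of 2 kb. From 18 to 21 kb after the window's start, no library had a count.

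**Figure D3:**
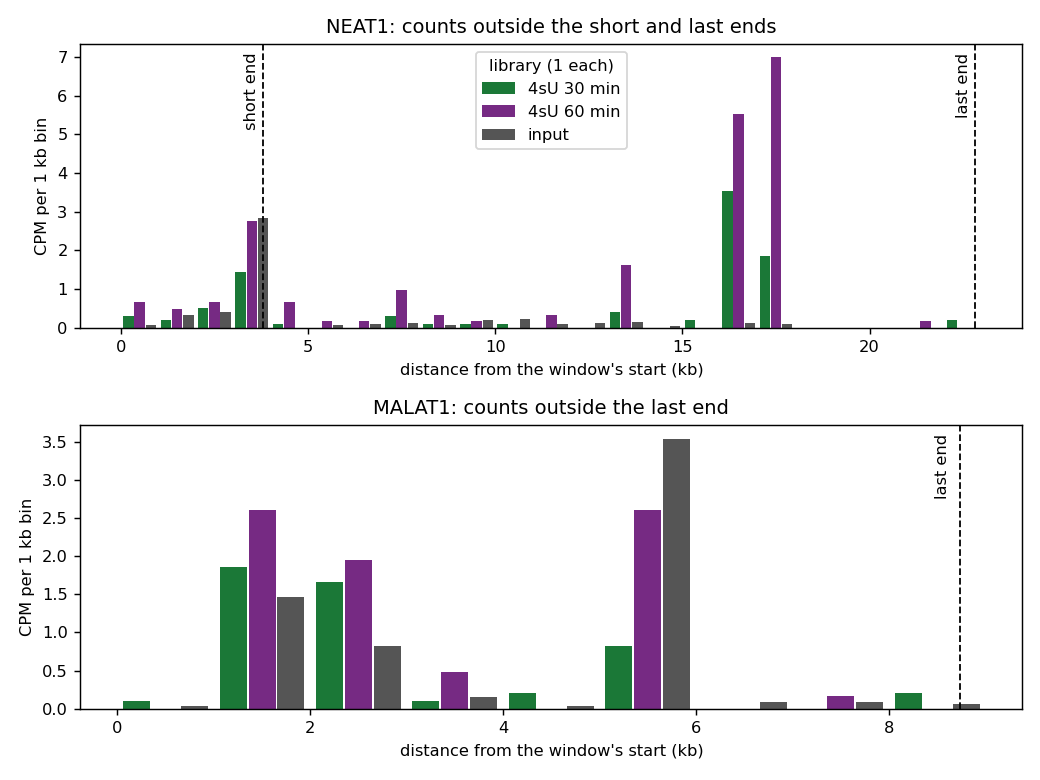
Counts outside the short and last ends in bins of 1 kb, as CPM of nuclear counts, along the NEAT1 window (top) and the MALAT1 window (bottom); bars are the 3 libraries and dashed lines mark the short and last ends. In NEAT1 the bins at 16 and 17 kb reach 5.53 and 6.99 CPM at 60 min against 0.122 and 0.0916 CPM in input, and in MALAT1 the bin at 5 kb is highest in input at 3.54 CPM.

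Within the NEAT1 short end, the captured libraries used the main position more. The position chr11:65193996 took 58.4% of the end's counts at 30 min (56.7 to 60.2), 60.1% at 60 min (58.5 to 61.7) and 51.9% in input (50.1 to 53.8). The second position, 3 nt downstream, took 14.7% (13.5 to 16.0), 13.8% (12.7 to 14.9) and 20.8% (19.4 to 22.3). Intervals of the captured libraries overlapped each other and lay clear of the input at both positions. The mean position relative to the main one was -0.0568 nt at 30 min, -0.204 nt at 60 min and 0.266 nt in input, with an SD of 4.43, 4.50 and 4.37 nt. The SD rests in part on the positions 20 and 24 nt upstream, and with merging within 10 nt it was 2.09, 1.88 and 2.40 nt. The libraries also differ in depth and in the selection steps, whose part in this was not tested.

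**Figure D4:**
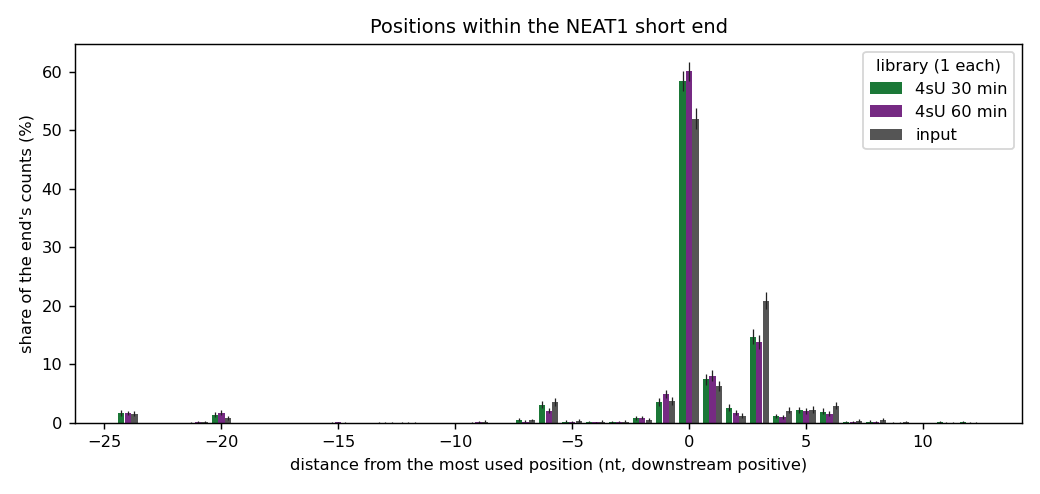
Share of the NEAT1 short end's counts at each position, in percent with Wilson 95% intervals, by distance from the most used position in nt; bars are the 3 libraries. The most used position holds 58.4% and 60.1% in the captured libraries and 51.9% in input, and the position 3 nt downstream shows the opposite order with 20.8% in input.

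MALAT1 gave few counts for an RNA known for its abundance in the nucleus. Its window held 155, 130 and 380 counts, or 16.1 CPM (13.6 to 18.8), 21.1 CPM (17.7 to 25.1) and 11.6 CPM (10.5 to 12.8). The window was 1.38-fold above input at 30 min (1.14 to 1.67) and 1.82-fold at 60 min (1.48 to 2.23), neither of which was called. At 30 min this rested on the scaling, with 1.02 to 1.08 under the other scalings and intervals that include 1. Between labelling times the ratio was 1.32 (1.03 to 1.67).

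The last end of MALAT1, chr11:65273937, was the main one. It had 107, 82 and 174 counts, or 11.1 CPM (9.09 to 13.4), 13.3 CPM (10.6 to 16.5) and 5.31 CPM (4.55 to 6.16). The captured libraries overlapped each other and both lay above the input. Its ratio to input was 2.09 at 30 min (1.63 to 2.67) and 2.51 at 60 min (1.91 to 3.28), called higher at each, as were 35.3% and 27.3% of the background sites. These ratios lay above those of 66.0% and 78.4% of the sites, at 1.61 and 2.40 times the median. With chrM counts in the total the ratios were 1.54 and 1.87, and with median-of-ratios and TMM scaling the 30 min ratio was 1.62 and 1.63, none of them called. Its mean of 9.91 CPM lies just under the filter of 10. The counts covered 10 positions, and 61.7% of them lay at 1 position. The other end in the final 500 nt of the window had 2, 0 and 1 counts. The counts do not show what this end is. Whether it is the RNase P cut, a poly(A) site beyond it or oligo(dT) pairing with a run of A in the genome was not tested.

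The ratios of the NEAT1 short end exceeded those of the MALAT1 last end in all 3 comparisons. The fold of the first divided by that of the second, which does not depend on the scaling, was 1.71 at 30 min over input (1.33 to 2.21), 2.64 at 60 min over input (2.01 to 3.50) and 1.55 at 60 over 30 min (1.15 to 2.10). Intervals are exact conditional ones of the odds ratio.

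Inner ends of MALAT1 made up a larger share in input. The last end held 69.0% of the window's counts at 30 min (61.4 to 75.8), 63.1% at 60 min (54.5 to 70.9) and 45.8% in input (40.9 to 50.8). Its share was 23.2 points above input at 30 min (14.1 to 31.6) and 17.3 points at 60 min (7.36 to 26.5). The inner ends together had 46, 48 and 205 counts, or 4.77, 7.80 and 6.26 CPM, with ratios to input of 0.762 (0.541 to 1.05) and 1.25 (0.891 to 1.72).

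This difference lay mostly in 1 end. The inner end at chr11:65271100, 2837 nt before the last end, had 3, 7 and 107 counts, or 0.311, 1.14 and 3.27 CPM. It was 10.5-fold lower than input at 30 min, a ratio of 0.0952 (0.0193 to 0.286), and its ratio at 60 min was 0.349 (0.137 to 0.743), both called lower. Of the background sites, 17.1% and 21.8% were called lower, but these have a mean of at least 10 CPM and this end does not. With no such filter, 0.925% and 1.08% of all merged nuclear ends were called lower. Sparse ends hold these shares down, as only 402452 of the 779809 ends had any input count. Neither pair of shares is thus a matched background for an end with 107 input counts. The end at chr11:65271100 held 28.2% of MALAT1 counts in input, 1.94% at 30 min and 5.38% at 60 min. Without it the inner ends had 43, 41 and 98 counts, and the fold of the last end over theirs was 1.40 at 30 min (0.892 to 2.22) and 1.13 at 60 min (0.704 to 1.82), in place of 2.74 (1.81 to 4.19) and 2.01 (1.31 to 3.10).

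A second inner end, chr11:65267093, lies 1893 nt after the start of the MALAT1 window and did not share this pattern. It had 12, 12 and 29 counts, or 1.24, 1.95 and 0.885 CPM, and 7.74%, 9.23% and 7.63% of the window's counts. Its ratio to input was 1.40 at 30 min (0.653 to 2.84) and 2.20 at 60 min (1.02 to 4.45), called higher at 60 min with an interval that nearly reaches 1. At 60 min 27.3% of the sites with a mean of at least 10 CPM were called higher, and 7.89% of all merged nuclear ends. Over the MALAT1 window before its last 500 nt, 46 counts of each library covered an expected 30 positions at 30 min, 31 at 60 min and 24.7 in input. Of the 205 input counts there, 107 lay at chr11:65271100. The value for the downstream part of NEAT1 is not matched to this one. It was drawn to 51 counts over 19080 nt, against 8301 nt here, and included the NEAT1 last end.

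Sites elsewhere in the genome with the most similar pair of log2 ratios to input were searched among 4873 sites with a mean of at least 30 CPM. Over only 3 libraries this likeness is a description, and genes were not assigned. The NEAT1 short end, at 1.83 and 2.73 for 30 and 60 min, was nearest to chr20:3764500 on the minus strand, at 1.79 and 2.65, then to chr1:6649339 and chr2:176989662 on the plus strand, at distances of 0.0867, 0.129 and 0.130. The chr20 site had 369217, 426801 and 361438 counts, far more than the short end, and these are part of the nuclear totals behind CPM. The MALAT1 last end, at 1.06 and 1.33, was nearest to chr19:17443246, chr19:10755232 and chr17:1946718 on the plus strand, at distances of 0.0151, 0.0352 and 0.0696. The NEAT1 last end, at 1.76 and 2.78 from very few counts, was nearest to chr17:56066400 on the minus strand, at 0.110, followed by the same chr20 and chr2 sites as the short end.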

How the data were processed

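Per the labels' protocols, RNA passed 2 poly(A) selections with a light RNase T1 cut between them (captured 4sU RNA only the second), and cDNA was primed with oligo(dT), circularised and amplified by PCR. Cutadapt and Bowtie are named in the submitters' processing notes, without versions. Neither build nor multi-mapping rules are named there or in the other sources at hand. Each library's deposited table holds raw counts of reads per position and strand; no molecular identifiers are named. Library totals were 14159691 (30 min), 8926568 (60 min) and 35410931 (input), of which 31.8%, 31.1% and 7.46% were mitochondrial and kept apart.

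Positions are 1-based. The short end was the site with the most counts within 500 nt of the position given for it, the last end that in the final 500 nt of a window, and ends before those final 500 nt were inner ends; any further end in them was kept apart. Ratios carry exact 95% intervals of 2 Poisson counts, levels exact Poisson, shares Wilson and their differences Newcombe intervals. Where a bound is given for a count of 0, it is the upper end of its exact Poisson interval. Named ends had at least 20 counts and 1% of the window in a library, with the short and last ends always named. Python 3.11.15, scipy 1.17.1 and, for TMM factors only, edgeR 4.0.16 were used. The calls were run on simulated Poisson counts for sites with a mean of at least 10 CPM, a filter that 1 of the 141 ends passed. Variation between libraries was not simulated, so this run does not bear on the calls of sparse ends. The members and lists were chosen with earlier results of these data known. Lists of paraspeckle and speckle genes were not used, as no annotation of hg19 was at hand.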

Additional observations from a re-analysis of the deposited data

Results flagged for a closer look

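Counts on the minus strand of the MALAT1 window, outside the ends followed above, numbered 20 at 30 min and 9 at 60 min, against 7 in the deeper input, or 2.07, 1.46 and 0.214 CPM. The ratio to input was 9.70 at 30 min (3.94 to 27.2) and 6.85 at 60 min (2.27 to 21.6). Nearly all lay at an end of chr11:65265484, 284 nt after the start of the MALAT1 window, with 19, 9 and 6 counts. The minus strand between the windows was higher in captured RNA too, with 31, 24 and 18 counts and ratios to input of 5.85 (3.17 to 11.1) and 7.10 (3.70 to 13.9). No minus-strand count lay in the NEAT1 window in any library.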

How the results depend on the processing

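Of 279 recomputed values, 211 stayed the same and 68 moved, which for a ratio or a share difference means beyond its interval. No called ratio became called in the other direction. The share differences, SDs and background percentages among these values carry no call. With merging within 10 nt, the upstream inner ends of NEAT1 at 30 min over input went from 0.685, not called, to 2.02, called higher. With chrM counts in the total, the ratios to input at 30 and 60 min were 2.56 and 4.85 for the NEAT1 window, 2.63 and 4.94 for its short end, 1.36 and 3.24 for its inner ends, 1.02 and 1.36 for the MALAT1 window, and 1.54 and 1.87 for its last end. With median-of-ratios scaling they were 2.69 at 30 min for the NEAT1 window, 2.76 for the short end, 1.07 for the MALAT1 window and 1.62 for its last end, and 60 over 30 min gave 2.31 and 2.29 for the NEAT1 window and short end. TMM gave 2.71 and 6.07 for the NEAT1 window, 2.78 and 6.18 for the short end, 1.08 at 30 min for the MALAT1 window, and 2.24 and 2.22 for 60 over 30 min in the NEAT1 window and short end. Without its highest inner end the MALAT1 window was 1.89 and 2.40 times the input. With merging within 10 nt NEAT1 inner ends were 2.63 and 5.77 times the input, since positions beside the short end then count as inner. Counting distinct positions, scaled by the nuclear totals, gave 3.08 for NEAT1 inner ends at 60 min, and 1.52 and 2.54 for MALAT1 inner ends. Positions need not grow in step with depth, so these values rest on that scaling. Without the 2 fullest bins, an alternative chosen after seeing the data, NEAT1 inner ends were 0.805 and 1.91 times the input. The share of the NEAT1 short end was above input by 2.41 and 1.75 points, by 0.948 and 0.196 points without positions of 1 count, and by 0.871 and 0.682 points without inner ends under 20 counts, with intervals that include 0 for 0.196 and 0.682. For inner ends the differences were -2.47 and -1.76, -0.939 and -0.204, and -0.927 and -0.691, where the interval of -0.204 includes 0. The cause of the scaling differences was not tested. Merging within 50 nt moved nothing beyond its interval. No paired analysis was possible because each group has 1 library, which also leaves no replicate to leave out.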

Other observations

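Between the windows, the plus strand held 93 counts in input, 20 at 30 min and 26 at 60 min. Most lay at chr11:65224074, with 63, 14 and 5 counts in that order, and at chr11:65237763, with 0, 2 and 18. The latter was seen almost only at 60 min. A count of 0 in input allows up to 0.1126 CPM.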
